A study of Drosophila melanogaster with 22 samples.

Results

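Translation initiation factors are the proteins that assemble a ribosome on an mRNA at its start codon. Their genes were taken here as the probe sets with 1 current gene symbol that begins with eIF and a digit. There were 44 such probe sets for 40 genes, and each gene was represented by the probe set with the highest mean signal over all 22 arrays. Of the 40 genes, 34 lay at or above the signal filter and were tested among 9385 probe sets of the 18769 that are not Affymetrix controls. The 40 genes comprised 3 start codon and subunit joining factors, 3 genes of eIF2 and alternative tRNA factors, 5 subunits of eIF2B, 16 eIF3 genes, 12 cap-binding and helicase factors of the eIF4 class, and eIF6. The genes of eIF1A and of the alpha and gamma subunits of eIF2 were not among these probe sets and are not analysed here.

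In initiation, eIF2 brings the initiator tRNA to the small ribosomal subunit as a complex with GTP, and eIF2B recharges eIF2 with GTP after each round. eIF3 is the large scaffold that holds the small subunit ready, while eIF4E, eIF4G and eIF4A bind the mRNA cap and unwind the leader. eIF1 and eIF5 act in start codon selection, and eIF5B and eIF6 act at the joining of the large subunit.

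RNA came from Drosophila S2 cells, an established line from embryos with properties of hemocytes, the insect blood cells. Cells received dsRNA at 30 µg/ml on days 0, 1 and 3 and were lysed on day 5, and 6 µg of total RNA was labelled for each one-colour Affymetrix array. The groups were cells given dsRNA against the exosome cap subunits Csl4, Rrp4 and Rrp40, the ring subunits Mtr3, Rrp46 and Ski6, the nucleases Dis3 and Rrp6, or Rrp47, the partner of Rrp6, and cells given dsRNA against GFP, a sequence that S2 cells lack. Rrp4 was represented by 4 arrays and every other group by 2. The exosome is a complex of nuclease and scaffold subunits that removes bases from the 3′ ends of RNA, and the series asked how its subunits differ in the RNAs they affect. No genotype differs between the groups, since all are the same cultured line. All 9 comparisons with GFP share the same 2 GFP arrays, so that a deviation of a GFP array enters every one of them. The labels call the depletion arrays biological replicates and do not say that they were separate cultures. The p-values measure the spread between these arrays, whose number limits the precision.

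Signal of the targeted gene did not fall in every group. In its own arrays the targeted gene's signal was lower for 2 of 9 targets (Dis3 by -1.17 and Rrp6 by -0.91, log2), higher for 4 (Csl4, Rrp40, Ski6 and Rrp47, by 1.69 to 2.67 on the log2 scale) and passed no threshold for 3 (Rrp4, Mtr3 and Rrp46). Whether a probe set reads the added dsRNA itself was not tested, so a higher signal does not show a higher mRNA level. Each group is therefore called by the dsRNA on its label, and a direction given for a group is that of the arrays with this label. Of 9 hemocyte markers, 7 lay above the filter, with means from 3.50 to 11.39 over the list. Of 12 measured markers of other cell types, 6 did, with means from 2.71 to 7.36. As deposited, each of the 4 Rrp4 arrays had a trimmed mean of 500, against 125.9 to 345.6 on the other 18 arrays. Their poly-A spike-in signal relative to the hybridization controls was also -4.87 to -2.44, against 0.66 to 2.24 (log2). It was -4.87 and -4.78 on Rrp4 1 and Rrp4 2 and -2.44 and -2.76 on Rrp4 3 and Rrp4 4, so the 4 arrays were not alike. Rrp4 dsRNA and this difference in handling cannot be told apart. The 18S rRNA control probe sets had log2 signals of 12.04 to 13.66 in Mtr3, Ski6, Dis3 and Rrp6 and 6.69 to 12.35 in the other 5 depletions, against 7.97 and 9.90 in GFP.

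Over all depletions against GFP, 7 of the 34 genes were called at an adjusted p under 0.05 in limma, 4 higher and 3 lower. That is 20.6% of the genes, against 21.9% of all probe sets tested (11.7% higher and 10.3% lower), so as a class the initiation factors were called about as often as other genes. Within the class the direction differed from gene to gene. After quantile normalization eIF3a, eIF3k, eIF4E1 and eIF4G2 rose, and eIF1, eIF3i and eIF3g1 fell. The median log2 difference of the 34 genes was -0.01, against -0.03 over all probe sets tested. One pair of genes was called the same way in every depletion: eIF3a rose in all 9 and eIF1 fell in all 9. Over all probe sets tested, 0.991% were called higher in all 9 comparisons and 0.629% lower in all 9.

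Single depletions called between 4 and 13 factor genes. Ski6 called 13 of 34 (22.7% of all probe sets tested), Rrp4 11 (23.7%), Rrp40 10 (20.3%), Rrp47 10 (20.3%), Csl4 8 (18.6%), Mtr3 8 (18.9%), Rrp46 7 (19.8%), Dis3 7 (21.1%) and Rrp6 4 (8.96%). The share of the 34 genes was 38.2% in Ski6 and 32.4% in Rrp4, above the share of all probe sets in the same comparison, and 20.6% in Dis3 and in Rrp46, close to it. Most of the Ski6 calls were lower (9 of 13, where 10.8% of all probe sets were lower) and most of the Rrp47 calls were higher (8 of 10, where 942 of the 9385 probe sets were higher). Of the 34 genes, 24 were called in at least 1 of the 9 depletions and 10 in none. The 10 were eIF2A, eIF2beta, eIF2Balpha, eIF2Bbeta, eIF3d1, eIF3f2, eIF3g2, eIF3j, eIF4A and eIF4B. A further test compared the 9 depletions among themselves and used no GFP array in the contrast. It called 24 of the 34 genes (70.6%), against 57.5% of all probe sets tested. By complex it called from 1 of 3 start codon and joining factors to 11 of 15 eIF3 genes and 6 of 7 eIF4 factors.

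**Figure D1:**
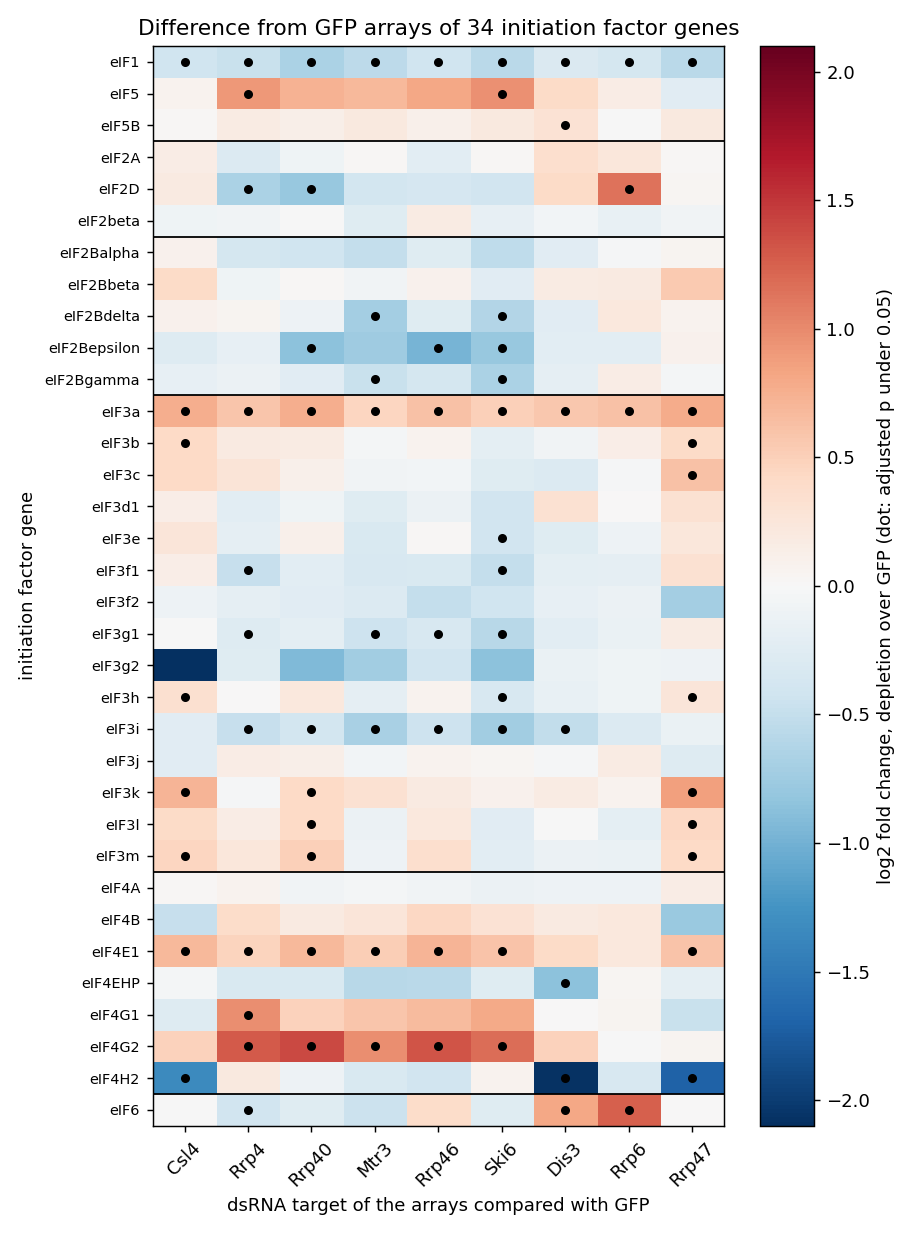
Log2 fold change over GFP (colour) of the 34 tested initiation factor genes (rows, with lines between the 6 classes) in each of the 9 depletions (columns). Black dots mark an adjusted p under 0.05. eIF3a is red and eIF1 blue with a dot in every column, while eIF6 is red with a dot in Dis3 and Rrp6 and blue with a dot in Rrp4.

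Among the start codon and joining factors, eIF1 fell. This small protein holds the small subunit open for scanning and guards start codon choice. Its log2 signal was 12.75 at the lowest, 13.08 at the median and 13.33 at the highest over the 20 depletion arrays, against 13.56 and 13.59 on the GFP arrays. All 20 depletion arrays lay below both GFP arrays. The log2 difference was -0.48 ± 0.08 (SE, adjusted p = 0.000281), or 1.40-fold lower. In single depletions it ran from -0.67 in Rrp40 to -0.31 in Dis3, and the test among depletions did not call it (adjusted p = 0.12). The call over all depletions was kept in each of the 22 fits that left out 1 array. It depended on scaling: with the values as deposited the difference was -0.13 (adjusted p = 0.465), on a scale where the median of all probe sets was shifted by 0.46. As deposited it was positive in Rrp4, Mtr3, Ski6 and Rrp47, where medians were shifted by 1.58, 0.97, 1.02 and 0.59. With median centring it was negative in all 9 depletions and not called in Csl4, Dis3, Rrp6 or Rrp47. Of the single calls, the one in Dis3 (adjusted p = 0.0479) was lost in 16 of 22 fits, GFP 1 and GFP 2 among the arrays left out. The call in Rrp6 was lost without GFP 1, GFP 2, Rrp6 2 or Rrp47 1, that in Csl4 without Csl4 2 and that in Rrp46 without Rrp46 2.

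eIF5 activates the GTPase of eIF2 once the start codon is found. Its signal in Ski6 was 10.54 and 10.45 and in Rrp4 10.39, 10.51, 10.37 and 10.56, against 9.39 and 9.69 in GFP. It rose in Ski6 by 0.95 ± 0.28 (SE, adjusted p = 0.0205) and in Rrp4 by 0.91 ± 0.24 (adjusted p = 0.0125). Both calls were lost without GFP 1, and the one in Ski6 also without either Ski6 array. In Rrp47 it had 9.30 and 9.32, below both GFP arrays, and it differed among depletions (adjusted p = 0.00881). eIF5B, the GTPase of subunit joining, had 12.33 and 12.10 in Dis3, against 11.88 and 11.95 in GFP, a difference of 0.30 ± 0.10 (adjusted p = 0.0329) that was -0.03 with the values as deposited. That call was lost without GFP 1, GFP 2 or Dis3 1.

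The factors that bring tRNA to the ribosome differed most in eIF2D, which can place tRNA on the small subunit without eIF2 and is known from yeast and mammals to release used subunits. Its log2 signal in Rrp6 was 10.56 and 10.96, against 9.79 and 9.45 in GFP, so that it rose by 1.14 ± 0.25 (SE, adjusted p = 0.00717), or 2.21-fold. In Rrp40 it had 8.70 and 8.94, and in Rrp4 8.910, 8.989, 8.922 and 8.999, all below both GFP arrays. It fell by 0.80 in Rrp40 (adjusted p = 0.0294) and by 0.66 in Rrp4 (adjusted p = 0.033). With the values as deposited the Rrp4 difference turned to 0.95. The Rrp4 call was lost without GFP 1 or any 1 Rrp4 array, the Rrp40 call without GFP 1 or either Rrp40 array, and the Rrp6 call without GFP 2 or Rrp6 2. Against the mean of the other 8 depletions, which uses no GFP array, eIF2D was 1.39 ± 0.18 higher in Rrp6 (adjusted p = 2.7e-05), both Rrp6 arrays lay above all 18 other depletion arrays, and the call was kept in all 22 fits. In that comparison 25.5% of all probe sets were called. The 2 Dis3 arrays disagreed, at 9.53 and 10.50.

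eIF2A, another factor reported in mammals to deliver initiator tRNA, differed among depletions (adjusted p = 0.00453) and not from GFP in any of them. Its Rrp4 arrays had 12.03, 12.01, 11.79 and 11.92, against 12.18 and 12.28 in GFP, and its Dis3 arrays 12.46 and 12.71. Against the other 8 depletions it was 0.35 lower in Rrp4 (adjusted p = 0.00207; 36.0% of all probe sets called) and 0.38 higher in Dis3 (adjusted p = 0.016; 19.2%). With the values as deposited both directions turned, to 0.90 in Rrp4 and -0.39 in Dis3. eIF2beta, the eIF2 subunit that binds eIF5 and eIF2B, ranged from 11.85 to 12.32 over the depletion arrays, against 12.04 and 12.25 in GFP, and was called in no comparison with GFP.

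Calls among the 5 subunits of eIF2B against GFP were all lower. Epsilon, the catalytic subunit, had 9.31 and 9.17 in Rrp46, 9.30 and 9.43 in Rrp40 and 9.38 and 9.48 in Ski6, against 10.57 and 9.87 in GFP. These arrays lay below both GFP arrays, and the differences were -0.98 ± 0.26 (adjusted p = 0.0137), -0.86 ± 0.26 (adjusted p = 0.0293) and -0.79 ± 0.26 (SE, adjusted p = 0.0385). Gamma, which pairs with epsilon, had 8.78 and 8.83 in Ski6 and 9.07 and 8.92 in Mtr3, against 9.48 and 9.46 in GFP, and fell by 0.66 ± 0.15 in Ski6 (adjusted p = 0.00407) and 0.47 ± 0.15 in Mtr3 (adjusted p = 0.0357). Delta, a regulatory subunit, had 9.91 to 10.17 over the Mtr3 and Ski6 arrays, against 10.97 and 10.48 in GFP, and fell by 0.72 in Mtr3 (adjusted p = 0.00982) and 0.61 in Ski6 (adjusted p = 0.0211).

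Ski6 thus called 3 of 5 eIF2B subunits lower, where 10.8% of all probe sets were, with a median log2 difference over the 5 of -0.61, against -0.04 over all probe sets tested. The regulatory subunits alpha and beta were called in no depletion. Alpha ranged from 8.34 to 9.29 over the depletion arrays, against 9.23 and 8.81 in GFP, and beta from 9.24 to 10.31, against 10.02 and 9.21. The 18S rRNA control signal was high in Ski6 and Mtr3, the groups of the gamma and delta calls, and its part in the result was not tested. The gamma call in Ski6 was kept in all 22 fits, and that in Mtr3 was lost without GFP 1, GFP 2 or either Mtr3 array. The epsilon and delta calls were each lost without GFP 1, and each was also lost without 1 or both arrays of its own depletion. Scaling turned some of these directions: as deposited, delta was 0.13 higher in Mtr3 and 0.25 higher in Ski6, epsilon 0.14 higher in Ski6, and gamma 0.53 higher in Mtr3 and 0.38 higher in Ski6.

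eIF3a is the largest subunit of eIF3 and its main scaffold. Its log2 signal was 11.47 at the lowest, 11.68 at the median and 11.93 at the highest over the 20 depletion arrays, against 11.04 and 11.06 on the GFP arrays. All 20 lay above both GFP arrays, with a gap wider than the spread inside any group. Over all depletions it rose by 0.63 ± 0.08 (SE, adjusted p = 1.14e-05), or 1.55-fold. Single differences ran from 0.46 in Mtr3 to 0.78 in Rrp47, all called, and each of these calls was kept in all 22 fits that left out 1 array. It was higher under both other scalings in all 9 depletions, although with median centring the difference was not called in Rrp46 (0.40, adjusted p = 0.102), Ski6 (0.40, adjusted p = 0.0892) or Rrp6 (0.39, adjusted p = 0.157), nor as deposited in Dis3 (0.27, adjusted p = 0.19) or Rrp6 (0.37, adjusted p = 0.119). The test among depletions did not call it (adjusted p = 0.0653).

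eIF3i and eIF3g1, which sit together on the subunit eIF3b, went the other way. eIF3i had 12.43 at the lowest, 12.82 at the median and 13.12 at the highest over the 20 depletion arrays, against 13.29 and 13.19 in GFP, and all 20 lay below both GFP arrays. It fell by 0.43 ± 0.08 (SE, adjusted p = 0.000481), or 1.35-fold, and was called lower in 6 of 9 depletions, from -0.73 in Ski6 to -0.38 in Rrp40. The call over all depletions was kept in all 22 fits. Of the single calls, the one in Rrp40 was lost without GFP 1 or either Rrp40 array and the one in Rrp46 without GFP 1 or Rrp46 1. With the values as deposited the difference over all depletions was -0.05 (adjusted p = 0.77), and of the 6 called depletions it was positive in Rrp4, Mtr3 and Ski6. eIF3g1 had 12.83, 13.23 and 13.67 at the lowest, median and highest, against 13.46 and 13.50 in GFP, with 17 of 20 arrays below both. Its difference of -0.22 ± 0.08 (adjusted p = 0.047) was lost in 13 of the 22 fits, those without GFP 1 (adjusted p = 0.189) and without GFP 2 (adjusted p = 0.228) among them, and was 0.14 as deposited.

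eIF3k, a small subunit at the edge of the complex, had 11.67, 12.07 and 12.78 at the lowest, median and highest over the depletion arrays, against 11.82 and 11.92 in GFP. It rose by 0.31 ± 0.09 (adjusted p = 0.0249), a call lost without GFP 1 or GFP 2, and 15 of 20 arrays lay above both GFP arrays. Its rise was largest in Rrp47 (0.86 ± 0.13, adjusted p = 0.000147) and Csl4 (0.71 ± 0.13, adjusted p = 0.000765), both kept in all 22 fits, and in Rrp4 its difference was -0.02.

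**Figure D2:**
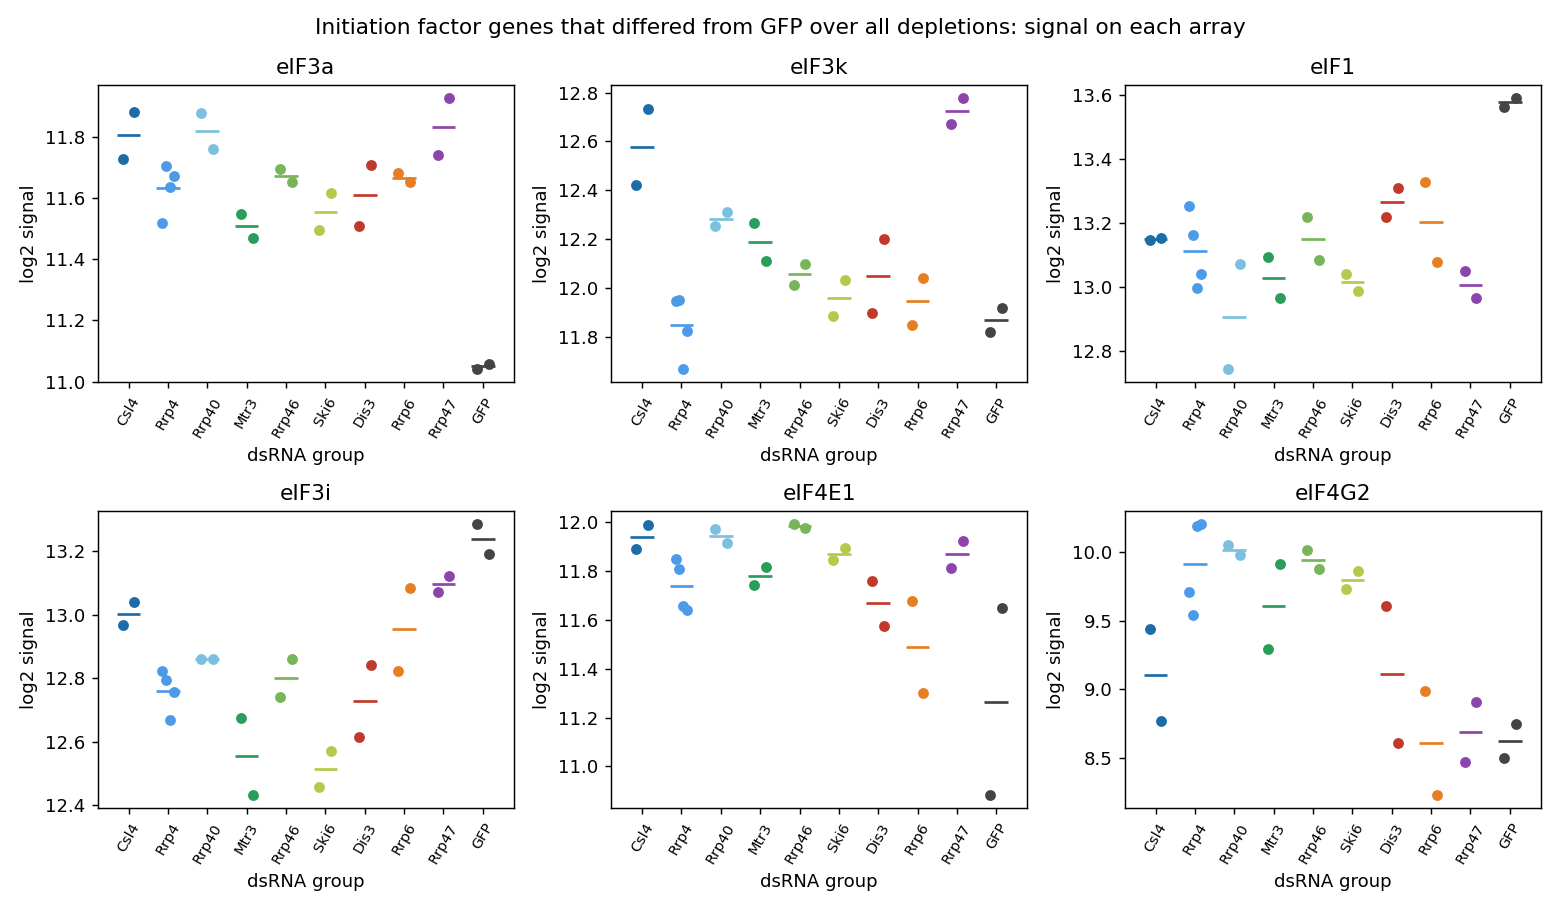
Log2 signal after quantile normalization of 6 of the 7 initiation factor genes called over all depletions on each of the 22 arrays (points), with group means (lines), by dsRNA group with GFP at the right. The depletion points lie above GFP for eIF3a and below it for eIF1 and eIF3i, whereas the 2 GFP arrays of eIF4E1 are 0.76 apart.

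The direction of eIF3a against eIF3i did not rest on how the arrays were scaled, since a difference between 2 probe sets of the same array cancels any factor common to the array. As deposited, log2 eIF3a minus log2 eIF3i was -1.46 to -0.87 on the 20 depletion arrays, against -2.23 and -2.14 on the GFP arrays. eIF3a minus eIF1 was -1.88 to -0.94 on the depletion arrays, against -2.60 and -2.52 in GFP. eIF3k minus eIF3i was -1.05 to -0.32, against -1.43 and -1.27. In all 3 cases the 20 depletion arrays lay above both GFP arrays. Other differences, each taken against eIF4A, did not behave so. For eIF4E1, 18 of the 20 depletion arrays lay above both GFP arrays and 0 below both. For eIF4G2 the numbers were 15 above and 2 below, for eIF6 9 and 11, and for eIF4H2 6 and 7. The genes of the first 3 pairs were already called in opposite directions on these arrays, so their values are no separate test. They show only that the signals of a pair differed unequally from the same 2 GFP arrays, whatever factor is common to an array. They do not show which of them changed, and since 2 probe sets are not comparable in level, the size within an array has no meaning of its own.

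**Figure D3:**
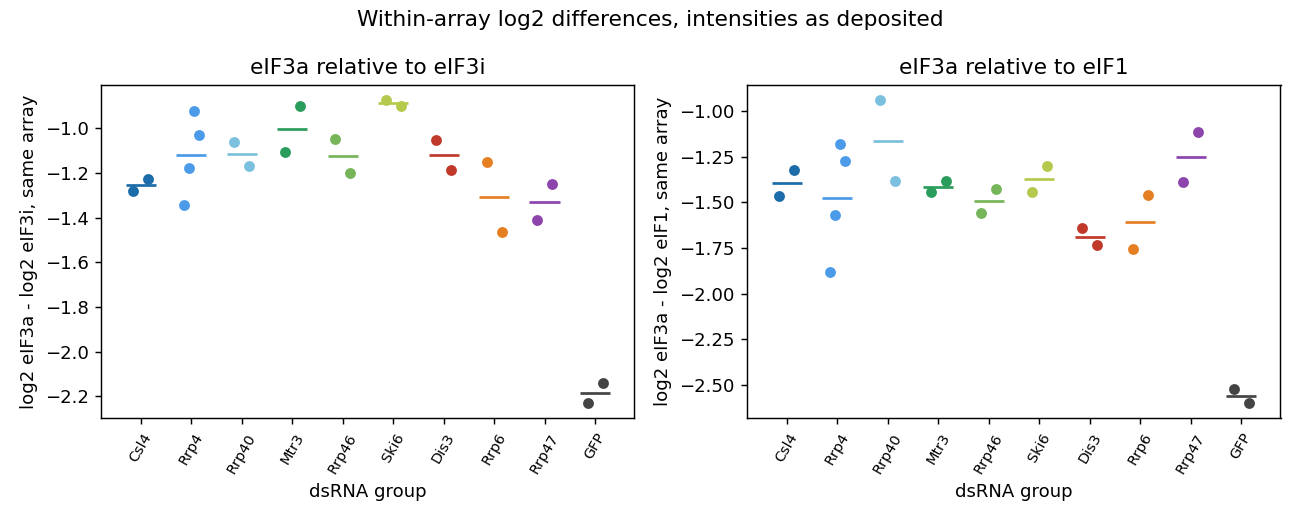
Difference in log2 deposited signal between eIF3a and eIF3i (left) and between eIF3a and eIF1 (right) on each array (points), with group means (lines). The 20 depletion arrays run from -1.46 to -0.87 for eIF3i and from -1.88 to -0.94 for eIF1, all above the 2 GFP arrays.

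Of the 15 tested eIF3 genes, 11 differed among depletions, all but eIF3a, eIF3f2, eIF3g2 and eIF3j. In Rrp47, 7 of the 15 rose and none fell, where 942 of the 9385 probe sets rose, with a median log2 difference of 0.31, against 0.02 over all probe sets tested. In Csl4, 5 rose and none fell, where 9.13% of all probe sets rose, with a median of 0.25, against 0.0025 over all. In Ski6, 5 fell and 1 (eIF3a) rose, where 10.8% of all probe sets fell, with a median of -0.34, against -0.04 over all. eIF3c, a core subunit that contacts eIF1, had 12.29 and 12.30 in Rrp47, against 11.83 and 11.53 in GFP, and rose by 0.61 ± 0.16 (adjusted p = 0.014). eIF3b, the core subunit with an RNA-binding motif, had 13.02 and 12.96 in Rrp47 and 12.89 and 13.12 in Csl4, against 12.56 and 12.61 in GFP. It rose by 0.41 ± 0.09 in Rrp47 (adjusted p = 0.00497) and by 0.42 ± 0.09 in Csl4 (adjusted p = 0.00381). The other calls in Rrp47 were eIF3h (0.25), eIF3l (0.44) and eIF3m (0.41), and in Csl4 eIF3h (0.34) and eIF3m (0.44). All of these were lost without GFP 1, at differences of 0.204, 0.305 and 0.204 in Rrp47 and 0.293 and 0.238 in Csl4. The eIF3c call in Rrp47 was lost without GFP 2, at 0.46. Without Rrp47 1 the Rrp47 count was 2, and without Csl4 2 the Csl4 count was 2. With median centring the counts were 4 in Rrp47 and 2 in Csl4.

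In Ski6, eIF3h had 12.28 and 12.43, against 12.65 and 12.74 in GFP, and fell by 0.34 ± 0.08 (adjusted p = 0.0059). After quantile normalization eIF3h thus rose in Csl4 and Rrp47 and fell in Ski6, and it was 1 of 3 factor genes called in both directions, beside eIF2D and eIF6. eIF3g1 (-0.58, adjusted p = 0.0007), eIF3f1 (-0.50, adjusted p = 0.0333) and eIF3e (-0.40, adjusted p = 0.0195) fell in Ski6 beside eIF3i. Without Ski6 1 the Ski6 count, eIF3a included, was 3. As deposited, where the Ski6 median of all probe sets was shifted by 1.02, these 5 subunits were 0.04 to 0.35 higher, and with median centring all 5 were lower and called. eIF3f1 had 12.58 and 12.62 in Ski6 and 12.50 to 12.67 in Rrp4, against 13.24 and 12.96 in GFP, and also fell in Rrp4 (-0.49, adjusted p = 0.0187; lost without GFP 1), but was 0.94 as deposited there. eIF3g1 also fell in Mtr3 (-0.44, adjusted p = 0.00655), Rrp46 (-0.33, adjusted p = 0.0342) and Rrp4 (-0.28, adjusted p = 0.0346), where the first call was lost without Mtr3 2 and the other 2 without GFP 1 or GFP 2. The Rrp46 call was also lost without either Rrp46 array, and the Rrp4 call without Rrp4 2, Rrp4 3 or Rrp4 4. As deposited eIF3g1 was 0.28 in Mtr3 and 1.13 in Rrp4. In Rrp40, 4 eIF3 genes rose (eIF3a, eIF3k, eIF3l and eIF3m) and 1 fell (eIF3i), where 11.0% and 9.30% of all probe sets did, and all of these calls but eIF3a were lost without GFP 1 or Rrp40 1.

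Set against the mean of the other 8 depletions, a contrast chosen after the data were seen, Rrp47 had 10 of 15 eIF3 genes higher and none lower, where 19.5% of all probe sets were called (9.29% higher). Ski6 had 8 lower and none higher, where 5.56% of all probe sets were called (3.10% lower). Csl4 had 4 higher and none lower, where 3.40% were called (1.47% higher). Without Rrp47 1 or Rrp47 2 the Rrp47 count was 0, although the 10 differences were 0.24 to 0.66 and 0.29 to 0.59 in those fits, against 0.26 to 0.61 with both arrays. Without Ski6 1 the Ski6 count was 0, with differences of -0.33 to -0.27, against -0.42 to -0.33 with both arrays. Without Csl4 2 the Csl4 count was 0, with differences of 0.21 to 0.29, against 0.34 to 0.45. Those fits left 1 array in the group, whose spread is taken from the other groups. With median centring the counts were 11 in Rrp47, 3 in Ski6 and 0 in Csl4, and as deposited 12, 2 and 0. The median difference of the 15 genes in Ski6 against GFP was -0.45 with median centring and 0.49 as deposited, so its direction turned with the scaling.

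A measure of the RNA or its labelling, the eIF-4a control ratio, differed between groups, and the GAPDH and actin controls ordered the groups otherwise. The array carries control probe sets at the 5′ and 3′ end of the eIF-4a transcript, and the 5′ over 3′ signal, as deposited, falls when cDNA is short. Its log2 group mean was -0.81 in Csl4 and -0.84 in Rrp47, against -1.02 in GFP. It was -1.26 in Ski6, -1.36 in Rrp6 and -1.26 in Rrp4. In Rrp40, Rrp46, Mtr3 and Dis3 it was -1.05, -1.13, -1.17 and -1.23, with median eIF3 differences of 0.11, 0.02, -0.19 and -0.15. Rrp47 and Csl4, with the most eIF3 genes called higher, had the highest ratios, while Rrp6, with the lowest, called eIF3a alone among them. Rrp4 and Ski6 had the same eIF-4a ratio, with median eIF3 differences of -0.02 in Rrp4 and -0.34 in Ski6, and Rrp6 had a median of -0.09. The 5′ over 3′ ratio of the GAPDH controls was -0.87 in Csl4 and -0.47 in Rrp47, against -0.59 in GFP. Its group means ran from -0.96 in Rrp46 to -0.39 in Ski6. That of the actin controls was -0.34 in Csl4 and -0.27 in Rrp47, against -0.37 in GFP. Its group means ran from -0.70 in Rrp4 to -0.13 in Rrp6. The 18S rRNA control signal was high in Ski6 and Mtr3, with median eIF3 differences of -0.34 and -0.19, and as high in Dis3 and Rrp6, with -0.15 and -0.09. The part of these ratios and of the 18S rRNA signal in the result was not tested.

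**Figure D4:**
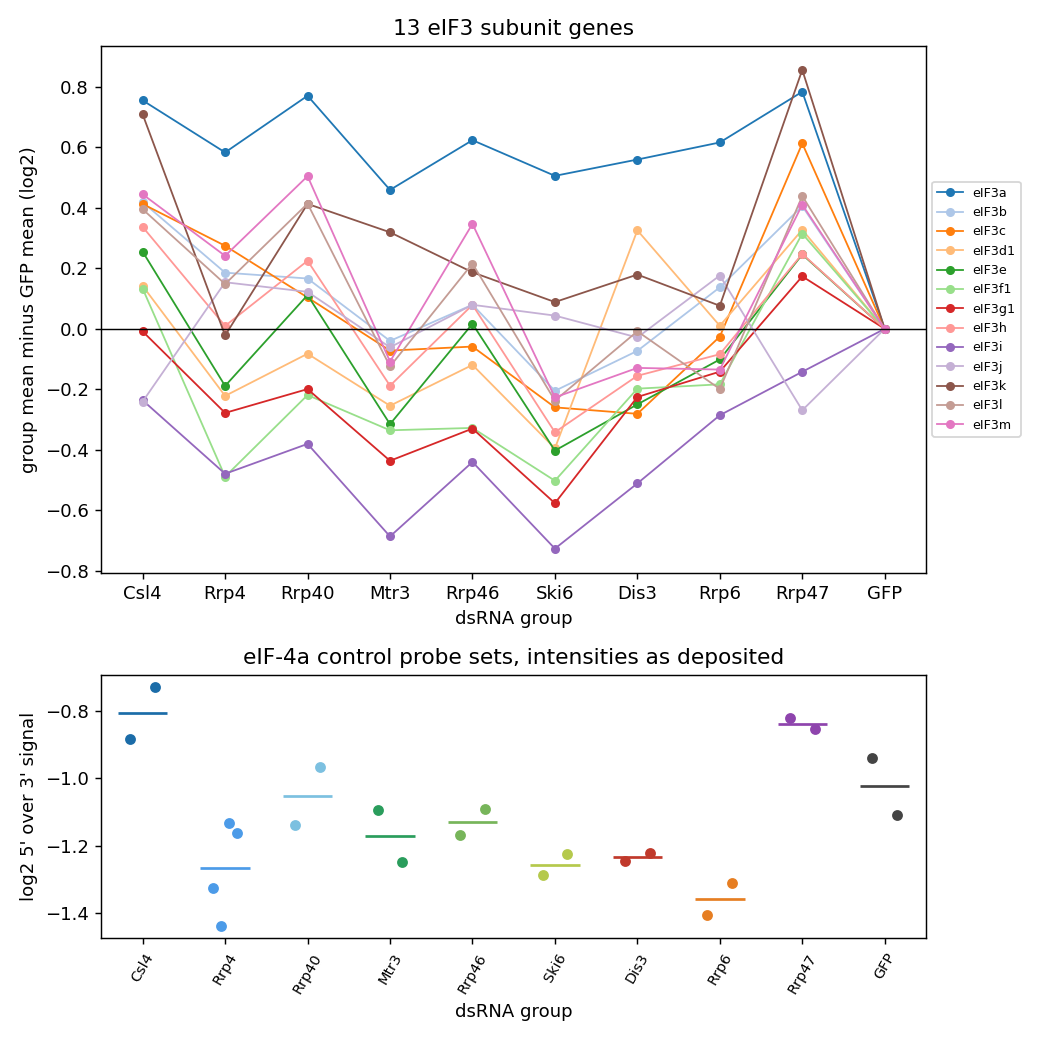
Top: group mean log2 signal minus the GFP mean of 13 eIF3 subunit genes, by dsRNA group with GFP (0 by construction) at the right; lines only join the points of a gene. Bottom: log2 of 5′ over 3′ deposited signal of the eIF-4a control probe sets on each array (points), with group means (lines); Csl4 and Rrp47 are highest at -0.81 and -0.84, and most eIF3 genes are highest in the same groups.

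The second copies of eIF3 genes and eIF3j gave no call. eIF3f2 ranged from 4.17 to 5.81 over the depletion arrays, against 5.79 and 4.91 in GFP, and eIF3g2 from 1.69 to 5.69, against 4.86 and 5.96, with Csl4 2 at the floor. These were the members just above the filter of 4.67, at means of 5.08 and 4.88. eIF3j, a loosely bound subunit, ranged from 10.47 to 11.31, against 10.68 and 11.02. eIF3d1, the cap-contacting subunit in mammals, differed among depletions (adjusted p = 0.00307), from 12.20 and 12.37 in Ski6 to 12.997 and 13.019 in Rrp47, with 12.77 and 12.59 in GFP.

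Of the eIF4 factors, eIF4E1 encodes the main cap-binding protein. Its log2 signal was 11.30, 11.83 and 11.99 at the lowest, median and highest over the depletion arrays, against 10.88 and 11.65 in GFP. The difference over all depletions was 0.54 ± 0.13 (SE, adjusted p = 0.00536), and it was called higher in 7 of 9 depletions, all but Dis3 and Rrp6. The GFP arrays lay further apart than the depletion arrays did among themselves. Without GFP 1 the difference was 0.16 (adjusted p = 0.457), so that 1 control array carried the call, also in each of the 7 single depletions.

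eIF4G2, a relative of the scaffold eIF4G1 known from Drosophila spermatogenesis, had 8.24, 9.66 and 10.20 at the lowest, median and highest, against 8.50 and 8.75 in GFP. It rose over all depletions by 0.79 ± 0.25 (SE, adjusted p = 0.0282), a call lost without GFP 1 or GFP 2. It rose in Rrp40 (1.39), Rrp46 (1.32), Rrp4 (1.28), Ski6 (1.17) and Mtr3 (0.98), where all 12 arrays, from 9.30 to 10.20, lay above both GFP arrays. It was not called in Csl4, Dis3, Rrp6 or Rrp47, whose arrays had 9.44 and 8.77, 9.61 and 8.61, 8.99 and 8.24, and 8.47 and 8.91. Without GFP 1 each of these 5 calls was lost, at differences of 0.86 to 1.26. Against the other 8 depletions it was lower in Rrp47 (-0.82, adjusted p = 0.0318) and Rrp6 (-0.91, adjusted p = 0.0123).

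eIF4G1, the scaffold between eIF4E and eIF4A, was highest in Rrp4. Its Rrp4 arrays had 11.34, 11.41, 11.60 and 11.49, against 10.07 and 10.92 in GFP, and it rose there by 0.97 ± 0.34 (adjusted p = 0.0467), a call lost in 15 of 22 fits, GFP 1 and each Rrp4 array among those left out. The lowest arrays were Csl4 2 at 9.84, Dis3 2 at 9.84, Rrp47 1 at 9.90 and Rrp6 2 at 9.97. In Csl4, Dis3 and Rrp6 the other array of the group was higher, at 10.62, 11.18 and 11.14. eIF4G1, eIF4G2 and eIF5 thus had replicate 2 below replicate 1 in all 3 of these groups, which were also those with the widest spread over all probe sets. Csl4, Dis3 and Rrp6 had a median absolute difference between their arrays of 0.343, 0.412 and 0.435, against 0.305 in GFP. The other 6 depletions had 0.123 to 0.230. The part of these arrays in the results on eIF4G1, eIF4G2 and eIF5 was tested only by leaving them out. Without these 3 arrays, eIF4G1 kept its call in Rrp4, a difference that uses none of them. Leaving them out also takes their spread out of the estimate shared by all groups, so the kept call adds no support. For eIF4G2 and eIF5 the outcome without these arrays is not given here.

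eIF4H2, related to the eIF4H proteins that stimulate the helicase eIF4A, had the largest fall among the calls on factor genes. Its log2 signal was 6.60 and 5.41 in Dis3, 6.16 and 6.60 in Rrp47 and 7.22 and 6.24 in Csl4, against 7.94 and 8.20 in GFP. It fell by 2.07 ± 0.33 in Dis3 (SE, adjusted p = 0.000289), or 4.19-fold, by 1.69 ± 0.33 in Rrp47 (adjusted p = 0.00168) and by 1.33 ± 0.33 in Csl4 (adjusted p = 0.00918). In the other 6 depletions it was between 7.46 and 8.45 and not called. Replicate 2 of eIF4H2 lay below replicate 1 in Csl4, Dis3 and also Rrp6 (8.01 and 7.46), the groups with the widest spread over all probe sets. The Dis3 and Rrp47 calls were kept in all 22 fits, and the Csl4 call was lost without GFP 2 or Csl4 2. The direction was the same under both other scalings, though in Rrp47 (adjusted p = 0.0513) and Csl4 (adjusted p = 0.112) it was not called with the values as deposited.

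eIF4EHP, a cap-binding protein that does not bind eIF4G and represses translation, had 7.04 and 6.99 in Dis3, against 7.54 and 8.21 in GFP, and fell by 0.87 ± 0.21 (adjusted p = 0.00675). That call was lost without GFP 2, and the gene's other probe set gave -0.24 (adjusted p = 0.615). eIF4B, a cofactor of the helicase, had 4 probe sets that disagreed. The one used ranged from 9.53 to 11.14 over the depletion arrays, against 10.18 and 10.60 in GFP, and was called in no depletion, with -0.77 in Rrp47 (adjusted p = 0.0699). Another was called lower in Rrp47 (-1.06, adjusted p = 0.00617) and Csl4 (-0.89, adjusted p = 0.0181), and a dim one with a mean of 5.12 was called higher in Rrp4 (1.21, adjusted p = 0.0449). eIF4A, the helicase itself, stayed between 13.33 and 13.73 on the depletion arrays, against 13.55 and 13.57 in GFP, with no call against GFP. Among depletions it differed just under the threshold (adjusted p = 0.0494).

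eIF6 had the smallest adjusted p of the factor genes in the test among depletions (1.38e-06). It binds the large ribosomal subunit, keeps it from joining the small one, and acts in large subunit assembly. Its log2 signal was 11.14 and 11.33 in Rrp6 and 10.57 and 10.99 in Dis3, against 10.02 and 9.93 in GFP. It rose by 1.26 ± 0.16 in Rrp6 (SE, adjusted p = 7.59e-05), or 2.40-fold, and by 0.81 ± 0.16 in Dis3 (adjusted p = 0.0014), or 1.75-fold. Rrp46 had 10.33 and 10.40, above both GFP arrays, at a difference of 0.39 that was not called, and Rrp47, the partner of Rrp6, had 10.01 and 9.96.

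The 18S rRNA control signal was 13.17 to 13.66 in Rrp6 and Dis3. It was 13.59 and 13.54 in Ski6, where eIF6 had 9.89 and 9.56 and eIF2D 9.26 and 9.16, below both GFP arrays. Its part in the eIF6 and eIF2D results was not tested further. Both eIF6 calls were kept in all 22 fits, with median centring (1.12 in Rrp6 and 0.95 in Dis3) and as deposited (1.10 and 0.63). Against the other 8 depletions it was 1.28 ± 0.12 higher in Rrp6 (adjusted p = 4.77e-07) and 0.77 ± 0.12 higher in Dis3 (adjusted p = 0.000254), and both Rrp6 arrays lay above all 18 other depletion arrays. In Rrp4, with 9.68, 9.69, 9.43 and 9.51, it was 0.40 ± 0.14 lower than in GFP (adjusted p = 0.0433). The Rrp4 call was kept in 11 of 22 fits and the difference was 1.19 as deposited.

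**Figure D5:**
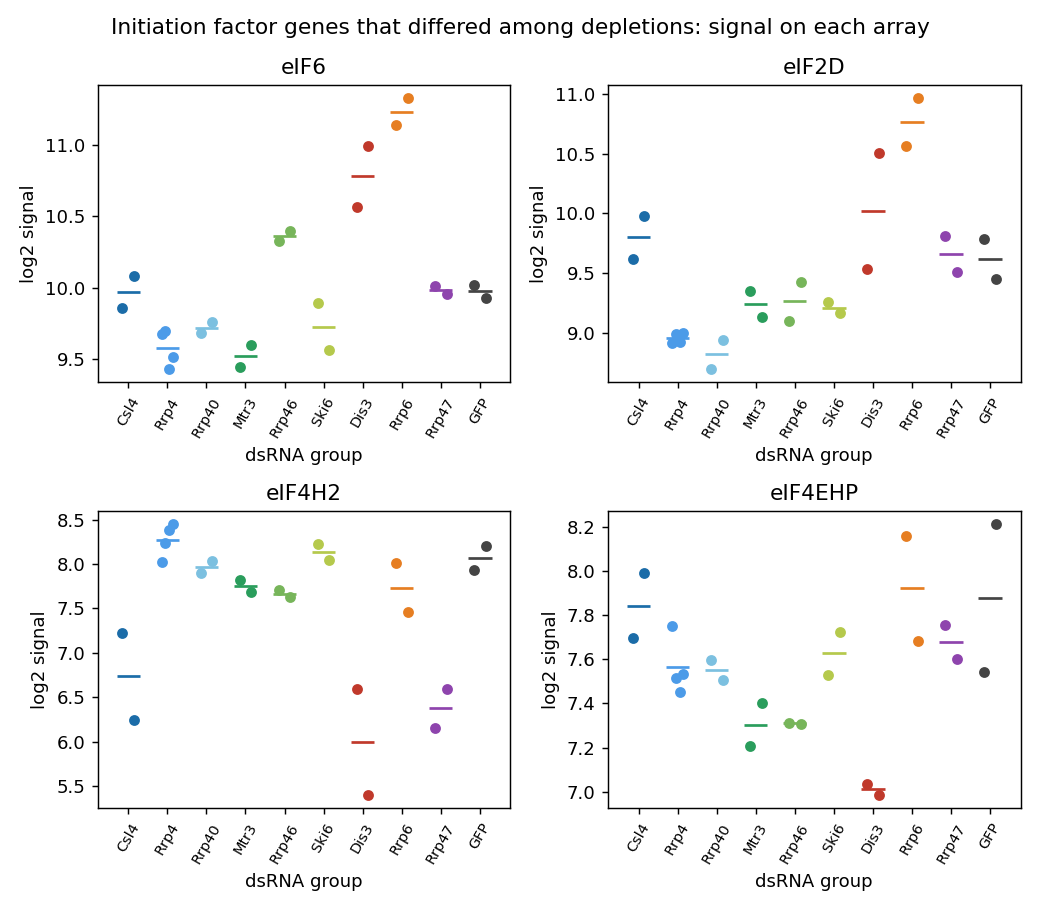
Log2 signal after quantile normalization of eIF6, eIF2D, eIF4H2 and eIF4EHP on each array (points), with group means (lines), by dsRNA group with GFP at the right. eIF6 and eIF2D are highest in Rrp6, while eIF4H2 is lowest in Dis3, Rrp47 and Csl4 and eIF4EHP lowest in Dis3.

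The 6 genes under the filter were not tested. They were eIF3d2 and the eIF4E relatives eIF4E3, eIF4E4, eIF4E5, eIF4E6 and eIF4E7, with mean log2 signals of 4.38, 4.46, 4.03, 3.02, 3.26 and 1.70, where the filter was 4.67. eIF4E7 lay at the floor of 1.69 on 20 of 22 arrays and eIF4E5 on 7. eIF4E3 ranged from 2.44 to 6.13 over the depletion arrays, against 5.95 and 3.22 in GFP, and eIF4E4 from 3.03 to 5.31, against 2.89 and 5.33. The GFP arrays of eIF4E4 lay outside the range of the depletion arrays on both sides, and those of eIF4E3 lay inside it.

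Beyond the factors themselves, 33 genes that regulate initiation or act later in translation were listed, of which 25 were on the array and 24 were tested. Over all depletions 4 rose, 3 fell and 17 were not called, where 11.7% of all probe sets rose and 10.3% fell, with a median log2 difference of -0.03, against -0.03 over all probe sets tested. Paip2, which takes poly(A)-binding protein away from eIF4G, had 9.797, 10.9995 and 12.119 at the lowest, median and highest, against 10.43 and 10.38 in GFP, and rose by 0.63 ± 0.17 (adjusted p = 0.0115). NAT1, an eIF4G relative that lacks the eIF4E site, rose by 0.59 ± 0.18 (adjusted p = 0.0255), the release factor eRF3 by 0.48 ± 0.13 (adjusted p = 0.0108) and Sesn, an inhibitor of TOR signalling, by 0.42 ± 0.13 (adjusted p = 0.0305). Sesn did not move one way in all groups: it rose by 1.42 in Rrp4 (adjusted p = 7.33e-06) and fell by 0.59 in Rrp6 (adjusted p = 0.0479), where it had 8.10 and 7.68, against 8.53 and 8.43 in GFP.

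Tsc1, also an inhibitor of TOR signalling, fell by 0.43 ± 0.12 (adjusted p = 0.0175), pelo, which rescues stalled ribosomes, by 0.38 ± 0.11 (adjusted p = 0.0191) and crc, the ATF4 homologue translated when eIF2 is inhibited, by 0.25 ± 0.08 (adjusted p = 0.026). Each of these 7 calls was lost without 1 of the GFP arrays: NAT1 and eRF3 without GFP 1, Tsc1 without GFP 2, and the other 4 without either. With the values as deposited the 3 falls were 0.04 to 0.09. Over all depletions the eIF2 kinases PEK (0.19, adjusted p = 0.436) and Gcn2 (0.31, adjusted p = 0.203) were not called. In single depletions PEK rose in Rrp4 (0.77, adjusted p = 0.00627) and Rrp46 (0.75, adjusted p = 0.0175). Gcn2 rose in Rrp4 (0.78, adjusted p = 0.0078) and Ski6 (0.63, adjusted p = 0.0494). Neither was called in any other depletion.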

How the data were processed

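The authors deposited 1 intensity per probe set for each of 22 one-colour Affymetrix arrays of S2 cell RNA; the submitters' processing notes name GCOS, whose version is not given in the sources used here. The 4 Rrp4 arrays share a trimmed mean of 500 and the other 18 do not. Here values were quantile normalized, raised to a floor of 3.234 (10th percentile of the normalized values, controls aside) and put on the log2 scale. Of 18952 probe sets, 183 controls were left out, and the 9385 with a mean log2 signal at or above the median of 4.67 were tested. In R 4.3.3, limma 3.58.1 fitted 10 group means (12 residual degrees of freedom) with a trended eBayes step, and p-values were adjusted with the Benjamini-Hochberg method over all 9385. Every adjusted p in the text is from this fit unless another setting is named beside it. Comparisons were all depletions against GFP, each depletion against GFP, a test of differences among the 9 depletions, and each depletion against the other 8. Symbols came from the platform annotation, updated through RefSeq. The fit was tested on simulated data.

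Every gene of the class is named. Values are given for genes called over all depletions or among depletions, the 2 called highest and lowest in each depletion, the genes highest and lowest in mean signal in each class, and those next to the filter. The members, lists and contrasts were chosen with earlier results of these data known. Alternatives were other scalings, no filter, the replicate number as a block, array weights and arrays left out.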

Additional observations from a re-analysis of the deposited data

Results flagged for a closer look

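The genes below differed between depletions by limma's test among the 9 depletions (Benjamini-Hochberg adjusted), a test of the difference itself. eIF6 had an adjusted p of 1.38e-06, eIF2D 0.000121 and eIF4H2 0.000113. The other eIF4 factors had 0.00428 for eIF4G2, 0.0134 for eIF4B, 0.0211 for eIF4G1, 0.024 for eIF4EHP and 0.0494 for eIF4A. In eIF3 the values were 5.98e-05 for eIF3h, 0.000172 for eIF3k, 0.000415 for eIF3b, 0.000621 for eIF3m, 0.000754 for eIF3g1, 0.000949 for eIF3e, 0.00172 for eIF3l, 0.0018 for eIF3i, 0.00218 for eIF3c, 0.00307 for eIF3d1 and 0.00346 for eIF3f1. In eIF2B they were 0.00284 for eIF2Bdelta, 0.0068 for eIF2Bgamma and 0.0125 for eIF2Bepsilon, and eIF2A and eIF5 had 0.00453 and 0.00881.

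In 2 of 40 genes, 1 of the 4 Rrp4 arrays was flagged as standing apart from the other 3, and chance gives about 1 in 20. The gap over the whole range was 0.833 for eIF3d2, with 5.05, 4.84, 4.80 and 3.57, and 0.866 for eIF4B, where 10.69 stood below 10.79, 10.80 and 10.81. Both gaps are above Dixon's critical value for 4 samples. eIF4E7 was not flagged, although its Rrp4 values were 1.7721 on array 1 and the floor of 1.6931 on the other 3.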

How the results depend on the processing

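The number of factor genes called moved with the scaling and with single arrays, and the cause was not tested. With the values as deposited the counts were 16 over all depletions, 33 in Rrp4, 24 in Mtr3, 23 in Ski6 and 23 in Rrp47, all higher, and 5 in Rrp40 and 2 in Rrp6. On that scale the median of all probe sets tested was itself shifted by 0.46 over all depletions. The shift was 1.58 in Rrp4, 0.97 in Mtr3, 1.02 in Ski6 and 0.59 in Rrp47. The share of all probe sets called under each alternative is not given here, so these counts show nothing particular to the factor genes. Median centring gave 4 in Csl4, 7 in Rrp4, 5 in Rrp40, 4 in Mtr3, 4 in Rrp46, 3 in Dis3, 2 in Rrp6, 6 in Rrp47 and 3 for Ski6 against the other 8. Without a filter the counts were 4 over all depletions, 6 in Rrp4, 6 in Rrp40, 4 for Ski6 against the other 8 and 11 for Rrp47 against the other 8. Array weights gave 4 over all depletions, 4 in Csl4, 4 in Dis3, 1 in Rrp6 and 21 for Ski6 against the other 8. Without Csl4 2, Dis3 2 and Rrp6 2 the counts were 15 over all depletions, 19 in Mtr3, 14 in Rrp46, 15 in Dis3 and 16 in Rrp47. Rrp4 arrays 1 and 2 alone gave 6 and arrays 3 and 4 alone 5. With only a depletion's own arrays and GFP the counts were 3 in Csl4, 4 in Mtr3, 1 in Dis3 and 0 in Rrp6.

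With the replicate block the counts were 5 in Rrp4 and 5 in Mtr3. The arrays share only a number: over 45 pairs of groups, the correlation of replicate 2 minus replicate 1 ran from -0.35 to 0.41.

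Leaving out 1 array gave 4 to 10 over all depletions, 2 to 10 in Csl4, 4 to 12 in Rrp4, 2 to 11 in Rrp40, 3 to 12 in Mtr3, 2 to 9 in Rrp46, 5 to 14 in Ski6, 5 to 8 in Dis3, 3 to 5 in Rrp6, 4 to 11 in Rrp47 and 21 to 26 among depletions. It gave 0 to 14 for Ski6 and 0 to 20 for Rrp47 against the other 8. The test among depletions gave 23 without Rrp4 arrays 1 and 2 and 22 without 3 and 4, alternatives added after the data were seen. As deposited, 22 of the 40 called falls of factor genes against GFP turned positive and 1 of the 45 called rises (eIF5B in Dis3, -0.03) turned negative, against 0 with median centring. Among the 42 gene values chosen for naming these were eIF3g1 over all depletions (0.14), eIF2D in Rrp4 (0.95), eIF3f1 in Rrp4 (0.94), eIF2Bdelta in Mtr3 (0.13), eIF3i in Mtr3 (0.10), eIF2Bepsilon in Ski6 (0.14), eIF3i in Ski6 (0.042) and eIF1 in Rrp47 (0.11). Over all alternatives these 42 values kept direction and call 1034 times, passed no threshold 177 times and reversed 8 times. Many alternatives leave out an array of a group outside the comparison, which leaves the log2 difference as it was. The tally is therefore no measure of how firm the calls are, and many were lost without GFP 1. Dim probe sets near the filter and 2 arrays per group limit what could be called.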
